A study of Gallus gallus with 2 samples.

Results

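Integrated stress and immediate early genes were followed as 9 chicken genes: ATF4, ATF3, ASNS, CHAC1, XBP1, HERPUD1, FOS, JUN and EGR1. Every probe set of the array whose platform gene symbol names one of them was taken, which gave 15 of 37693 chicken probe sets and 9 of 13008 genes. The samples were GFP-positive cells sorted from the neural tube of chicken embryos. The control sample received the empty plasmid pSuper-neo-GFP, and the knockdown sample received the same plasmid carrying hairpins against Sox4 together with one carrying hairpins against Sox11. Both were electroporated at Hamburger-Hamilton stage (HH) 9, labelled as harvested at HH11, dissociated to single cells and sorted by GFP. The labels also name an incubation of 2 days, longer than these stages would take, and the true stage is therefore not certain. Each group is 1 array, and no source used here says how many embryos were behind it. The control carried no hairpin, so an effect of any hairpin and an effect of these hairpins cannot be told apart.

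The integrated stress response is a pathway in which stress-sensing kinases phosphorylate the translation factor eIF2. General protein synthesis then slows while translation of the transcription factor ATF4 increases, and ATF4 switches on genes of amino acid supply and further regulators such as ATF3. Misfolded protein in the endoplasmic reticulum (ER) engages this pathway and also the sensor IRE1, which splices XBP1 mRNA. Immediate early genes such as FOS, JUN and EGR1 are transcribed rapidly, without new protein synthesis, when MAP kinase signalling reaches factors such as SRF. ATF4 activity is set largely at translation and XBP1 activity by splicing, so the transcript signals below do not measure either activity.

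Of the 9 genes, ATF3, HERPUD1 and EGR1 had signals at least 2-fold higher in the knockdown, and ASNS had a signal at least 2-fold lower. ATF4, XBP1 and JUN differed by at most 1.08-fold at their brightest probe set, CHAC1 lay between, and FOS was too dim for a fold. Values are linear MAS5 signal intensities, and every difference is the log2 ratio of knockdown over control. A gene is represented by its brightest probe set, judged by the mean of its log2 signals. It counts as measured when that mean reaches the median over chicken probe sets, a signal of 118, which 8 of the 9 genes and 9303 of all genes did. Among all measured genes, 3.64% passed 2-fold upward in the knockdown and 1.06% downward (4.71% in either direction), and 82.9% lay within 1.5-fold. Of the 8 measured members, 3 passed upward and 1 downward, and the other 4 lay within 1.5-fold, but the members were chosen with earlier results of these data known, so this difference is a description. As each group has a single array, nothing was tested, and overlap of the groups cannot be judged. The spread given is the standard deviation (SD) of log2 ratios among measured probe sets of the same gene, pooled over many genes. Genes with several measured probe sets were put into 10 groups by signal, and the pooled SD ran from 0.39 to 0.55. A member takes the SD of the group that its signal falls in. For a member with 1 measured probe set, it therefore comes from other genes only. All probe sets were read on the same 2 arrays, so this SD leaves out variation between embryos, sorts or arrays. It does not stand in for a spread between replicates, and a log2 ratio given as a multiple of it is a description.

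**Figure D1:**
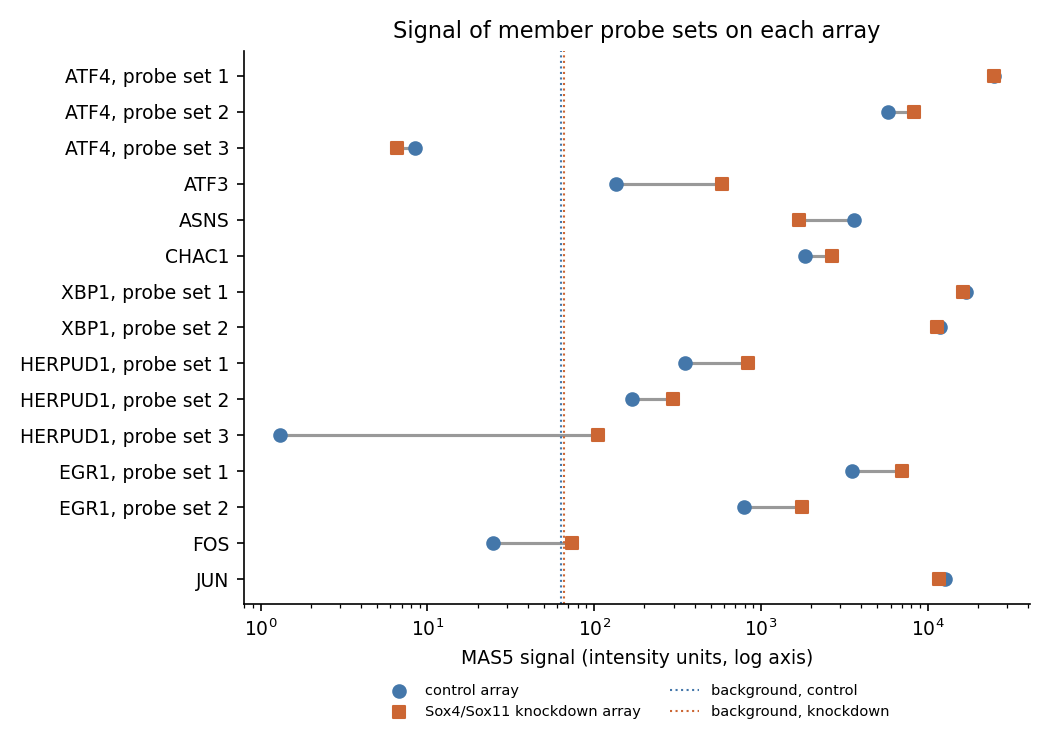
MAS5 signal (horizontal, log axis) of the 15 member probe sets on the control array (circles) and the knockdown array (squares), with the background of each array as dotted lines. ATF3, EGR1 and all 3 HERPUD1 probe sets lie further right on the knockdown array, ASNS lies further left, and the brightest ATF4 probe set and those of XBP1 and JUN nearly coincide.

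The transcription factor genes of the integrated stress response did not move together. ATF3, a bZIP factor (a class that binds DNA through a basic region and pairs through a leucine zipper), had signals of 135 (control) and 581 (knockdown). This is a log2 ratio of 2.11, or 4.30-fold higher, and 4.37 times the probe set SD of 0.48. ATF3 ranked 14 of 9303 measured genes by log2 ratio. It is read by a single probe set, so no other probe set bears on this value. Low signals leaned towards the knockdown array in general: in the decile of genes by signal that holds ATF3, the median log2 ratio was 0.26 and 8.71% were at least 2-fold higher. ATF3 exceeded that median by 1.84.

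ATF4, the central factor of the pathway, had signals of 25016 and 24933 at its brightest probe set, a log2 ratio of -0.0048. A second ATF4 probe set, of the kind designed against several transcripts of one gene, had 5753 and 8279 (log2 ratio 0.53). The third read 8.4 and 6.6, below the background of both arrays, and gives no fold. Background here is the signal that 95% of 687 probe sets for viruses do not exceed, 63.6 (control) and 65.8 (knockdown). The gap of 0.53 between the measured ATF4 probe sets is common, since 52.7% of 3853 genes with several measured probe sets had a gap of at least 0.5. The sign of the ATF4 log2 ratio also depended on the setting, with values from -0.25 under median centring to 0.26 with the mean of measured probe sets.

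Of the members downstream of ATF4, ASNS passed 2-fold on the lower side and CHAC1 passed no threshold. ASNS encodes asparagine synthetase, which makes asparagine from aspartate and glutamine and is a standard ATF4 target in mammals. Its signals were 3611 (control) and 1702 (knockdown), a log2 ratio of -1.09 (2.12-fold lower, 2.29 times the probe set SD of 0.47). Only 71 of 9303 measured genes were at least as low, and in its own decile of genes by signal 1.08% were at least 2-fold lower. ASNS is read by 1 probe set, whose suffix marks probes shared by several transcripts. CHAC1 encodes an enzyme that breaks down glutathione and, in mammals, lies downstream of ATF4. It had 1835 and 2673, a log2 ratio of 0.54, or 1.46-fold higher. This is 1.15 times the probe set SD and within 1.5-fold, and 12.7% of measured genes were at least as high.

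**Figure D2:**
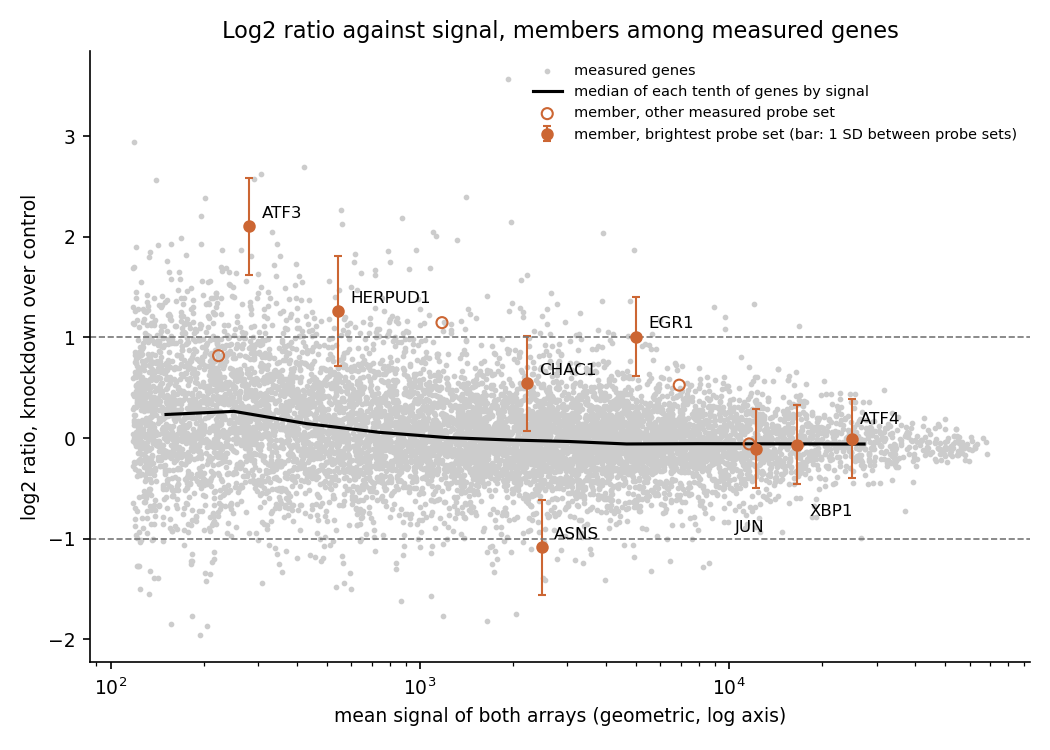
Log2 ratio of knockdown over control (vertical) against mean signal of both arrays (log axis). Grey points are 9303 measured genes, filled points the 8 measured members and open circles their other measured probe sets. Bars are 1 probe set SD, pooled over genes of like signal, and not a spread of the member itself. The black line is the median of each decile of genes by signal, which runs from 0.26 in a dim decile to -0.06 in the brightest; ATF3 and HERPUD1 lie in the dim range, where many genes pass the dashed 2-fold line, and EGR1 and ASNS where few do.

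The genes of the ER stress branch also differed from each other. HERPUD1 encodes a membrane protein of the ER that takes part in ER-associated degradation (ERAD), the disposal of misfolded proteins. Its brightest probe set had 351 and 841 (log2 ratio 1.26, 2.40-fold higher, 2.30 times the probe set SD of 0.55). A second probe set had 168 and 297 (log2 ratio 0.82). The third read 1.3 (control), below background, and 105.6 (knockdown), which gives at least 1.66-fold higher. All 3 were higher on the knockdown array. Both measured ones passed 1.5-fold, as did all measured probe sets of 2.7% of genes with several. In the decile of genes by signal that holds HERPUD1, 6.24% were at least 2-fold higher.

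XBP1, a bZIP factor whose spliced form induces ER folding genes, had signals of 17001 and 16212 at its brightest probe set. Its log2 ratio was -0.07, and the other probe set, with 11856 and 11385, gave -0.06. These probe sets differed by 0.01 in log2 ratio. The annotation used here does not tell which XBP1 splice form they read.

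Among the immediate early genes, EGR1, a zinc finger transcription factor, was the only measured member with higher signal on the knockdown array. Its brightest probe set had 3518 and 7067 (log2 ratio 1.01, 2.01-fold higher), which lies just past the 2-fold line. The other EGR1 probe set had 793 and 1755 (log2 ratio 1.15). Of 3853 genes with several measured probe sets, 0.519% had all of them at least 2-fold higher, EGR1 among them. In its decile of genes by signal 1.08% were at least 2-fold higher, and the median log2 ratio was -0.06. Median centring set equal the medians over all chicken probe sets, dim ones included, which were 112.8 (control) and 133.8 (knockdown). It moved every log2 ratio by the same -0.25, and the median of all measured genes from 0.02 to -0.23. EGR1 then came to 0.76 and no longer passed 2-fold.

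JUN and FOS encode bZIP proteins that pair to form the transcription factor AP-1. JUN had 12648 and 11754 (log2 ratio -0.11). FOS had 24.6 (control), below background, and 74.1 (knockdown), just above it. Against the control background this gives at least 1.17-fold higher, and FOS did not count as measured. The 3 immediate early members therefore showed a higher EGR1 signal, a JUN signal that differed by 1.08-fold, and a FOS signal below background in the control and just above it in the knockdown.

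**Figure D3:**
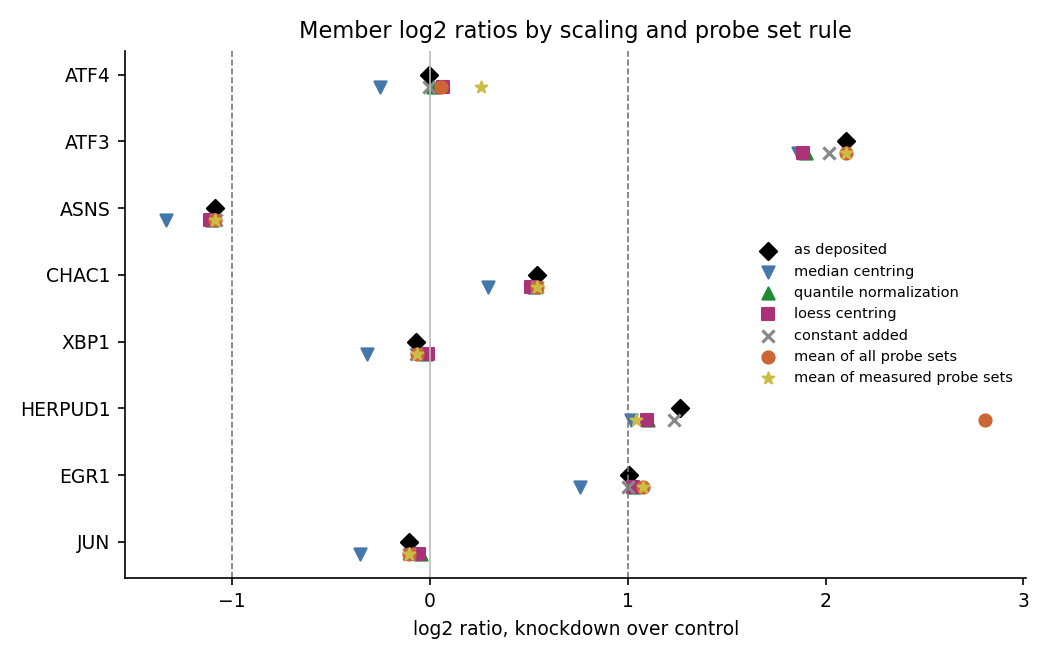
Log2 ratios of the 8 measured members as deposited (diamonds) and under other scalings and probe set rules (symbols in the key), with dashed lines at 2-fold. ATF3, HERPUD1 and ASNS stay past 2-fold in every setting drawn, EGR1 is 0.76 under median centring, and the HERPUD1 value of 2.81 includes the probe set that lay below background in the control.

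The other matched genes of these pathways passed 2-fold in either direction at a share close to that of all measured genes (5.30% against 4.71%). The 7 lists name 209 genes, of which 166 were matched and 151 measured. Over 7 lists with 151 measured genes, 8 passed 2-fold upward (5.30%, against 3.64% of all measured genes) and 0 downward (against 1.06%), and their median log2 ratio was 0.07 against 0.02 for all measured genes. No test was made, so the count of 0 carries no p-value; at 1.5-fold, 15 were higher (9.93%, against 11.4% of all measured genes) and 7 lower (4.64% against 5.71%). Of the 8, CEBPB and MBTPS1 passed 2-fold under each scaling tried. The other 6 did not under median centring, nor did STC2, BATF3, SOCS3 and MAP2K6 under quantile normalization or loess centring. Median centring gave 5 genes that were at least 2-fold lower, where 2.89% of all measured genes were. Of the 151 genes, 146 reached the filter signal on both arrays, among them all 8. MRTFB of the MAP kinase and SRF list was not matched, because the annotation holds it under the older symbol MKL2. MKL2 is in none of these counts of list genes. It passed 2-fold upward (log2 ratio 1.02) and counts as measured only through the knockdown array.

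The genes of eIF2, its kinases, eIF2B and the eIF2 phosphatase had a median log2 ratio of 0.04, against 0.02 for all measured genes. Of these 14 measured genes, 12 lay within 1.5-fold, beside 82.9% of all measured genes, and 7 lay above 0 and 7 below. EIF2AK3, the ER stress kinase PERK, had 497 and 537 (log2 ratio 0.11). EIF2AK2, the kinase PKR that binds double-stranded RNA, was at -0.41 and PPP1R15B, which directs a phosphatase to eIF2, at -0.37. PPP1CB, a catalytic subunit of that phosphatase, had 37675 and 18960 (log2 ratio -0.99), but another of its probe sets gave -0.13. EIF2B5, a subunit of the factor that recharges eIF2, had 275 and 496 (0.85).

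Among 11 measured bZIP and stress factors that can act beside ATF4, ATF3 or JUN, the median was 0.13. Of these, 2 passed 2-fold upward (18.2%, against 3.64% of all measured genes) and 0 downward (against 1.06%). The list is small and was chosen with earlier results of these data known, so this is a description. CEBPB, a C/EBP factor that can pair with ATF4, had 641 and 1563 (log2 ratio 1.29). BATF3, which pairs with JUN proteins, had 162 and 353 (1.12). In its decile of genes by signal 8.71% were at least 2-fold higher, and in that of CEBPB 2.37%. BACH1 and NFE2L2, regulators of the oxidative stress response, were at 0.55 and 0.51, but their other measured probe sets gave 1.35 and 0.03. DDIT3, which encodes CHOP, was not matched by symbol and was not analysed here, and neither were TRIB3, PPP1R15A and JUND.

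Genes linked to ATF4 in mammals, of amino acid synthesis, transport and folate metabolism, gave a median of 0.01 for 21 measured members. Of 32 listed, 24 were matched. Besides TRIB3, those not matched were SESN2, SHMT2, PYCR1, SLC3A2, SLC1A5, GDF15 and FGF21, so the median does not cover them. A single measured one passed 2-fold upward (4.76%, against 3.64% of all measured genes) and 0 downward (against 1.06%). This was STC2, which encodes a secreted glycoprotein, with 321 and 652 (log2 ratio 1.02, and 0.68 at its other measured probe set). It stood just past the line, and the list had 0 genes past 2-fold upward under 6 of 9 alternatives. PSPH, which completes serine synthesis, had 420 and 830 (0.98), though its other probe set gave 0.13. PSAT1, one step earlier in the same route, was even at 7496 and 7545. SLC7A5, an amino acid transporter, had 2971 and 1709 (-0.80, and -0.78 at its other probe set). DDIT4, an inhibitor of mTORC1 signalling, had 173 and 106 (-0.71), and counts as measured only through the control array. The aminoacyl-tRNA synthetases, which charge tRNAs and include ATF4 targets, gave a median of -0.11 for 18 measured members. Across the 9 alternatives this median ran from -0.36 to 0.09, and it was above 0 only where probe sets of a gene were averaged. Of the 18 genes, 17 lay within 1.5-fold, beside 82.9% of all measured genes. The exception was the tyrosyl enzyme gene YARS at -0.98, with its other probe sets up to -0.29. WARS, FARSA and SARS1 were at 0.36, 0.32 and 0.31.

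**Figure D4:**
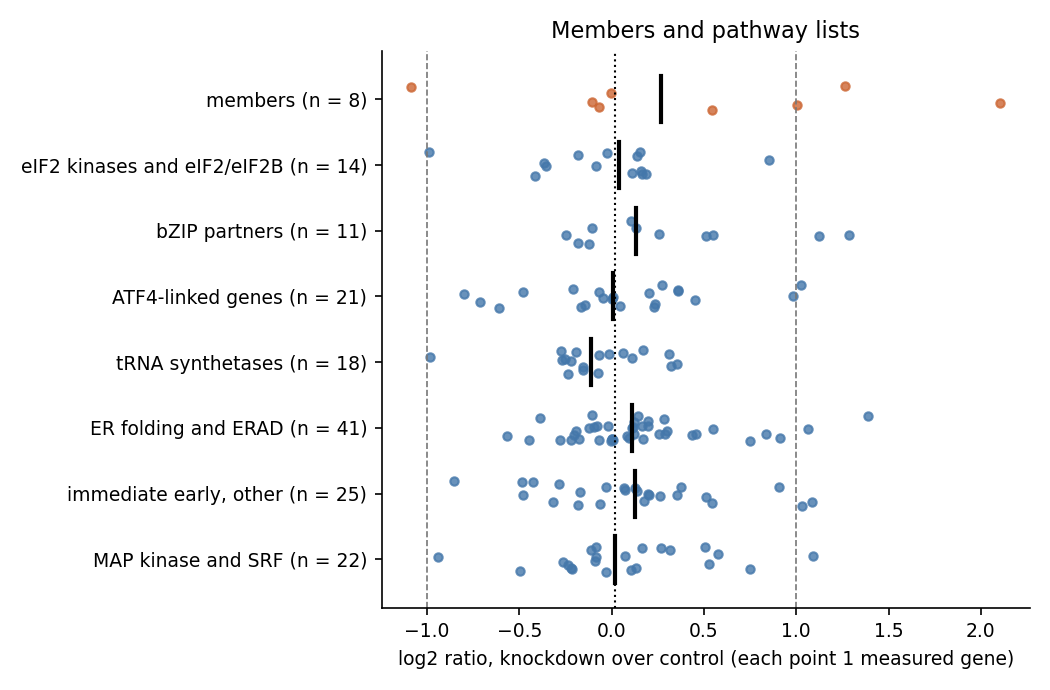
Log2 ratio of each measured member (top) and of each matched and measured gene in 7 pathway lists (points), with list medians as bars, 2-fold as dashed lines and the median of all measured genes (0.02) dotted. List medians lie between -0.11 and 0.13, and no list gene passes 2-fold on the lower side.

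For ER protein folding and ERAD the median was 0.11 over 41 measured members, and 36 lay within 1.5-fold, beside 82.9% of all measured genes. The 2 that passed 2-fold were both higher (4.88%, against 3.64% of all measured genes). They were MBTPS1, the protease that activates ATF6, with 141 and 369 (log2 ratio 1.39), and CRELD2, an ER protein induced by ER stress in mammals, with 1622 and 3395 (1.07). In the decile of genes by signal that holds MBTPS1, 8.71% were at least 2-fold higher, and in that of CRELD2 1.29%. UBE2J2, a ubiquitin-conjugating enzyme of ERAD, was at 0.91 and the chaperone gene CALR at 0.83. HSPA5, the main ER chaperone BiP, had 36016 and 33074 (-0.12). DNAJB9, a target of XBP1 in mammals, was at 0.30, with its measured probe sets between 0.12 and 1.32, and SEL1L, a scaffold of an ERAD ligase, was at -0.39, with 0.45 at its other probe set. Of the 41 genes, 26 lay above 0 and 15 below, and of all measured genes 52.1% lay above 0.

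Of 44 listed immediate early genes other than the members, 30 were matched and 25 measured, with a median of 0.12. FOSB, FOSL1, JUNB, JUND, EGR2, EGR3, IER2, IER5, NR4A1, ZFP36 and GADD45B were among those not matched, so these values do not cover them. Of the 25 measured, 2 passed 2-fold upward (8%, against 3.64% of all measured genes) and 0 downward (against 1.06%). Under median centring 0 passed upward and 1 downward, against 1.74% and 2.89% of all measured genes. SOCS3, an inhibitor of cytokine signalling, had 173 and 368 (log2 ratio 1.09), and CYR61, a secreted matrix protein also called CCN1, had 2939 and 6005 (1.03). In the decile of genes by signal that holds SOCS3, 8.71% were at least 2-fold higher, and in that of CYR61 1.08%. KLF2 was at 0.91, and IER3, at 182 and 100.4, was the lowest at -0.85 and counts as measured only through the control array. DUSP1, a phosphatase of MAP kinases induced with the early genes, had 1813 and 2647 (0.55), and MYC had 1561 and 1790 (0.20). FOSL2, a relative of FOS, lay below background on both arrays.

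Upstream of these genes, 23 of 30 listed MAP kinase and SRF pathway genes were matched, and the median of the 22 measured was 0.02. Of the 22, 19 lay within 1.5-fold, beside 82.9% of all measured genes. SRF was even at 1771 and 1730. MKL2, the older symbol of the listed but unmatched MRTFB, had 101.4 and 205.9 (log2 ratio 1.02) and is not among the 22. MAP2K6, a kinase that activates p38, had 279 and 592 (log2 ratio 1.09, and 1.13 at its other probe set). MAPK11, a p38 kinase gene, had 4599 and 2397 (-0.94), but -0.02 at another probe set. RPS6KA5, a kinase activated by MAP kinases, was at 0.75 and MAP3K5, a stress-activated kinase, at 0.57; both count as measured only through the knockdown array.

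With only 2 arrays, likeness between genes could be judged only by the difference in log2 ratio. Next to ATF3 in rank stood TNNC2, a troponin gene of fast muscle (2.12), and KRT7, a keratin gene (2.04). Next to HERPUD1 stood LDLRAD3 (1.28) and CXorf36 (1.26), next to EGR1 SBDS (1.009) and USP54 (1.006), and next to ASNS SGTB (-1.08) and RIC3 (-1.09). Adjacent genes differed from their member by at most 0.06. They were picked by rank among 9303 log2 ratios, so small differences follow from that choice and show no shared behaviour.

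The members' differences stood beside others between the arrays. Both targeted genes were lower on the knockdown array, SOX4 with 6604 and 3157 (log2 ratio -1.06) and SOX11 with 4552 and 2790 (-0.71). Marker lists are given by their matched genes, dim ones included, since the filter can be passed through 1 array alone. Of 10 neural progenitor markers 8 were below 0 and 2 above (summed signal 188176 and 170010), with a median log2 ratio of -0.18. Of these 10, 8 lay within 1.5-fold, SOX1 was at -0.77 and SOX2 at 0.76, and none lay below background on both arrays. Among neuron markers 9 of 10 were below 0 (77984 and 43375), with a median of -0.83 over the measured ones. In turn, 9 of 9 blood markers were above 0 (30622 and 71426), as were 16 of 18 muscle markers (11607 and 29599), 12 of 14 endothelium markers (2545 and 4541), 8 of 11 surface ectoderm markers (5965 and 8436) and 11 of 14 notochord and endoderm markers (4495 and 7006). Over the markers at the filter signal on both arrays, these numbers were 5 of 5, 10 of 11, 6 of 7, 6 of 8 and 7 of 10. The 5 blood markers at that signal are all globin genes, and only 9 of 16 listed blood markers were matched. Of the rest, SLC4A1 had 108.2 and 304.6 and TAL1 was even at 88.4 and 89.1, while PTPRC and SPI1 did not count as measured. Neural crest markers were above 0 in 2 of 7 (15749 and 12559). Among measured markers, median centring lowered the number above 0 from 11 to 9 of 12 for endothelium and from 6 to 4 of 8 for surface ectoderm. It also lowered the number from 2 to 1 of 7 for neural crest and from 2 to 1 of 10 for neural progenitors. The number stayed the same for neurons, blood, muscle and notochord and endoderm. Below background on both arrays were SPI1 of the blood list, ESRP1 of the surface ectoderm list, FOXA1 of the endoderm list and GAP43 of the neuron list. In such mixed samples fewer cells of a type and less RNA per cell cannot be told apart. The ratio of 3' to 5' signal measures how complete the labelled RNA is, and a higher ratio marks less complete RNA. It was 5.45 and 1.85 for actin, 2.92 and 1.505 for EF1A and 1.25 and 1.05 for GAPDH on the control and knockdown arrays. Each of these ratios was higher on the control array. The part of cell makeup or of RNA quality in the members' values was not tested.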

How the data were processed

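Intensities are linear probe set signals from the authors, who per the submitters' processing notes used MAS5 5.0, and started from biotin-labelled RNA of 100 ng total RNA, per the labels' protocols. The deposited intensities had been scaled: the mean after removing 2% at each end was 999.9 on both arrays. Detection calls and scaling settings are not given in the sources used here. Symbols came from the platform annotation, updated by Entrez number with a RefSeq table of GRCg7b. Of the chicken probe sets, 27166 had 1 symbol, 177 several and 10350 none. List genes were matched by symbol, and for tRNA synthetases and a few others by older symbols. Computations used Python 3.11.15, numpy 2.4.6 and pandas 2.3.3, were tested on simulated data, and took log2 once. A signal below background on 1 array gave a bound against that background.

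The members and lists were chosen with earlier results of these data known. Named genes are all member probe sets, the targets, up to 4 measured genes per list with the largest log2 ratio by size, fixed examples, and the rank neighbours of members past 2-fold. Alternatives were 9 settings of scaling, floor, constant, probe set rule and filter. The planned promoter and protein sequences were not used here.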

Additional observations from a re-analysis of the deposited data

How the results depend on the processing

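No paired analysis was possible because each group is 1 array, and for the same reason no array could be left out. Across 9 alternatives ASNS stayed at least 2-fold lower (log2 ratio -1.33 to -1.08), and ATF3 (1.86 to 2.11) and HERPUD1 (1.02 to 2.81) at least 2-fold higher in the 8 that measured them. EGR1 ran from 0.76 to 1.08, CHAC1 from 0.30 to 0.54, JUN from -0.35 to -0.04 and XBP1 from -0.31 to -0.01. The number of members at least 2-fold higher was 3 of 8 as deposited and 2 of 8 under median centring. Without a filter it was 4 of 9 (FOS enters). With the filter at the 75th percentile, which removes ATF3 and HERPUD1, it was 1 of 6. The pathway lists had 151 measured genes, 166 without a filter and fewer with the filter at the 75th percentile. Beside each count of pathway genes stands the percentage of all measured genes past the same fold. At least 2-fold higher were 8 as deposited (against 3.64%) and 2 under median centring (against 1.74%). Quantile normalization gave 4 (against 2.26%) and loess centring 4 (against 2.30%). The mean of all probe sets gave 15 (against 7.14%), no filter 13 (against 9.99%) and the filter at the 75th percentile 3 (against 1.21%). At least 2-fold lower were 0 as deposited (against 1.06%) and 5 under median centring (against 2.89%). Quantile normalization gave 1 (against 1.81%), loess centring 1 (against 1.76%) and no filter 2 (against 5.01%). The filters change which genes are counted; otherwise the cause was not tested. Of list medians, 19 of 63 recomputed values changed sign, 6 of them under median centring, which moved all genes by the same -0.25.

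Of all measured genes past 2-fold, 77.4% were higher as deposited, 37.6% under median centring, 55.6% under quantile normalization, 56.6% under loess centring, 66.6% without a filter and 60.7% with the filter at the 75th percentile. The genes at least 2-fold higher numbered 339 as deposited, 162 under median centring, 210 under quantile normalization, 214 under loess centring, 664 with the mean of all probe sets, 1300 without a filter and 71 with the stricter filter. Those at least 2-fold lower numbered 99, 269, 168, 164, 191, 652 and 46 in the same order. The mean of all probe sets moved the median of measured genes by 0.12. Median centring, set by all chicken probe sets, moved it by -0.25, away from 0. Signal near background limits FOS and the third HERPUD1 probe set.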

Other observations

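Several genes of the pathway lists were too dim to count as measured and are given here after their values were seen. BATF, a bZIP factor that pairs with JUN proteins, had 50.7 (control) and 105.8 (knockdown), which is at least 1.66-fold higher against background. CBS, an enzyme that makes cystathionine from homocysteine, had 29.1 and 104.1, at least 1.64-fold higher. EGR4, a relative of EGR1, had 106.1 and 22.9, at least 1.61-fold lower, and so lay opposite to EGR1. The bZIP factor gene ATF7 had 70.2 (control) and 30.7 (knockdown), at least 1.07-fold lower, and so lay opposite to BATF. The bZIP factor gene JDP2, the C/EBP gene CEBPA, the synaptic early gene ARC and KLF4 lay below background on both arrays and give no fold.

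Probe sets of a gene often disagreed in these pathways, and the dimmer ones tended to give the higher ratio. For 71 pathway genes more than 1 probe set was measured. The brightest had the lowest log2 ratio in 44 (62.0%), and the probe sets took both signs in 33 (46.5%). Over all 3853 such genes these shares were 62.5% and 53.0%. Of the 4 members with several, the brightest was the lowest in 3 (ATF4, EGR1 and XBP1), and HERPUD1 went the other way. Named after their values were seen, FARSB had -0.07 at its brightest probe set and up to 1.76 at another, MAP2K1 0.13 and 1.82, RHOB 0.14 and 1.48, and BTG2 -0.49 and 0.95.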
